A study of Homo sapiens with 25 samples.

Results

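The genes examined were the D cyclins CCND1, CCND2 and CCND3, the growth-promoting transcription factors MYC and MYCN, and 5 inhibitors of cyclin-dependent kinases, namely CDKN1A, CDKN1B, CDKN1C, CDKN2A and CDKN2B. They were chosen by name, with no measured value in the rule, and all 10 were found among the 20037 protein-coding genes of the annotation. D cyclins bind the kinases CDK4 and CDK6 and start the phosphorylation of RB1, the pocket protein that holds E2F transcription factors in check, and so admit a cell to S phase. MYC and MYCN bind DNA with the partner MAX and drive growth and cyclin D expression. The inhibitors act against this step: CDKN1A (p21), CDKN1B (p27) and CDKN1C (p57) bind whole cyclin and kinase complexes, while CDKN2A (p16INK4a) and CDKN2B (p15INK4b) bind CDK4 and CDK6. Embryonic stem cells cycle with a short G1 phase, which lengthens as they differentiate.

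The data were peak lists from chromatin immunoprecipitation with sequencing of 3 histone marks. H3K27ac is found at active promoters and enhancers, H3K27me3 at genes silenced by Polycomb, and H3K4me2 at active or accessible regulatory regions. All cells came from the established human embryonic line H1, taken undifferentiated (hESC) or as endoderm made from it at 3 successive stages. These were definitive endoderm, called hDE here, then anterior foregut (hAFE), then pharyngeal foregut (hPFE), the layer that gives rise to thymus and parathyroid. Each stage had 2 libraries of each mark, apart from H3K27me3 in hAFE (1 library, labelled replicate 2) and H3K4me2 in hAFE and in hPFE (1 library each).

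No treatment, culture day or sorting step of the stages is given in the sources used here. The 4 hESC libraries of H3K27ac and H3K27me3 came from an earlier deposit and were re-analysed, so earlier deposit and stage cannot be told apart where hESC is compared in these marks. Replicate 1 of H3K27me3 in hESC, hDE and hPFE carries the word millipore in its name, and its meaning is not given. The labels do not say whether replicates were separate cultures, and p-values then measure only the spread between these libraries. H3K27ac lists held 24871 to 111256 peaks over 9.60 to 46.0 Mb, the shortest pair being hAFE, H3K27me3 lists 23457 to 76441 peaks over 15.7 to 31.8 Mb, and H3K4me2 lists 87357 to 116210 peaks over 34.6 to 51.0 Mb. Sequencing depth is unknown for all lists, as no read counts were used, and the lack of a peak does not show the lack of the mark. Stage markers were partly as labelled. H3K27ac lay at 5 of 5 pluripotency genes in each hESC library and at 6 of 6 endoderm genes in each hDE library, against 0 of 6 in hESC. In hAFE it lay at 4 of 4 foregut genes in each library, against 2 and 1 in hESC, 2 and 2 in hDE and 4 and 3 in hPFE. Of these genes SOX2 is also in the pluripotency list and FOXA2 in the endoderm list. Pharyngeal genes had H3K27ac at 4 and 1 of 6 in the hPFE libraries and at 0 in every other library, with TBX1 among those at 0 in hPFE too. Among markers of other cells, PAX6, SOX1 and NEUROG2 (neural), TFAP2A (neural crest), and TBXT and HAND1 (mesoderm) were at 0 in every H3K27ac library. The neural crest gene SOX10 had H3K27ac over 1649 and 2079 bp in hDE, against 0 and 458 bp in hESC, and the mesoderm list (TBXT, MESP1, TBX6 and HAND1) summed to 592 and 918 bp in hESC, 243 and 698 bp in hDE, 0 bp in hAFE and 1033 and 412 bp in hPFE. Pluripotency genes kept H3K27ac at 3 of 5 in each hDE library. The part of such cells in the results was not tested. In bulk cultures, fewer cells with a mark and less mark per cell cannot be told apart.

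For each library the merged peaks were read in windows reaching 1 kb to each side of both annotated ends of a gene, in its body, and out to 100 kb. A gene is called marked at a stage when each of the stage's libraries had at least 1 bp of peak in the end windows. It gained a mark when it was marked at the later stage with no library of the earlier stage showing a peak there, and lost one in the reverse case. H3K27ac marked 6 of the 10 genes at the hESC, 7 at the hDE, 6 at the hAFE and 9 at the hPFE stage, against 42.9, 54, 34.2 and 50.2% of all protein-coding genes. H3K27me3 marked 5, 5, 3 and 2 of them at the same stages, against 19.2, 13.4, 15.5 and 12.7% of all genes. H3K4me2 marked 9, 9, 10 and 10, against 72.3, 68, 70.2 and 70.1%. The CDKN2A and CDKN2B ends were the only ones among the 10 genes with H3K27me3 in all 7 libraries. The MYC, MYCN and CDKN1A ends had it in none.

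**Figure D1:**
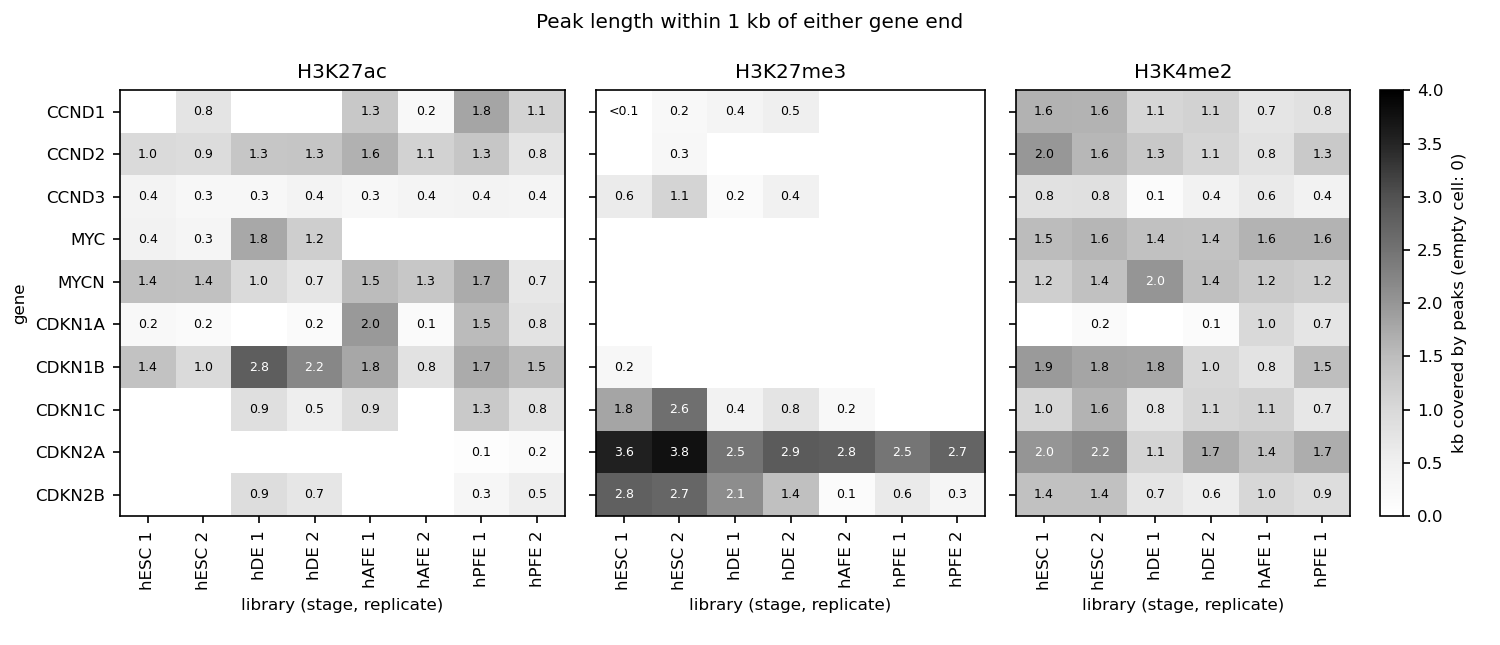
Kilobases covered by peaks within 1 kb of the annotated ends of each gene (vertical axis), per library (horizontal axis, stage and replicate), with 1 panel per mark and colour for the covered length. MYC is filled for H3K27ac in the 4 hESC and hDE libraries and empty in the 4 hAFE and hPFE libraries, while CDKN2A and CDKN2B are filled for H3K27me3 in all 7 libraries.

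Against hESC, hDE had gained H3K27ac at CDKN1C and CDKN2B (2 of 10, against 6.72% of all genes) and lost it at none of the 10 (1.18% of all genes). Against hDE, hAFE had gained it at CCND1 (0.459% of all genes) and lost it at MYC and CDKN2B (6.77%). Against hAFE, hPFE had gained it at CDKN2A and CDKN2B (3.81%) and lost it at none (0.185%). The whole course, hPFE against hESC, held gains at CDKN1C, CDKN2A and CDKN2B (5.25%) and a loss at MYC (1.63%). Set against hDE, hPFE had gains at CCND1 and CDKN2A (1.92%) and again the loss at MYC (3.17%), and set against hESC, hAFE had no gain (1.4%) and the loss at MYC (3.05%). H3K27me3 was gained at none of the 10 genes in any stage pair, against 0.634% of all genes in hDE against hESC, 2.17% in hAFE against hDE, 1.5% in hPFE against hAFE, 1.13% in hPFE against hESC, 1.62% in hPFE against hDE and 1.55% in hAFE against hESC. It was lost at none in hDE against hESC (4.27% of all genes), at CCND1 and CCND3 in hAFE against hDE (2.05%) and against hESC (6.43%), and at CDKN1C in hPFE against hAFE (2.49%). In hPFE it was lost at CCND1, CCND3 and CDKN1C against hESC (6.22%) and against hDE (2.19%). H3K4me2 was neither gained nor lost at any of the 10, where 0.449% of all genes gained and 2.04% lost it in hDE against hESC, 2.16 and 2.2% in hAFE against hDE, and 3.49 and 3.58% in hPFE against hAFE. Over the longer steps 1.56% gained and 4.47% lost it in hPFE against hESC, 2.24 and 2.32% in hPFE against hDE, and 1.67 and 4.54% in hAFE against hESC. The stage pairs share libraries, so these counts are not independent of each other, and with at most 2 libraries a side they have no test. A 2-sided exact permutation test of 2 against 2 could not go below 1 in 3.

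MYC, the general driver of growth and ribosome production, spans chr8:127735434-127742951 (hg38), with no other protein-coding gene within 100 kb. Its H3K27ac at the gene ends covered 431 and 334 bp in hESC and 1764 and 1195 bp in hDE, and 0 bp in all 4 hAFE and hPFE libraries. Every hESC and hDE library was thus above every later one. Inside the gene, the later libraries held a single H3K27ac peak of 393 bp, in replicate 2 of hAFE, with an authors' fold enrichment over input of 3.19. The strongest end peak had an authors' fold enrichment over input of 4.57 and 5.55 in the hESC lists and of 11.0 and 10.8 in the hDE lists, a value that ranks peaks within a list and is not compared between lists. H3K4me2 stayed at the MYC ends throughout, over 1504 and 1583 bp in hESC, 1420 and 1403 bp in hDE, 1612 bp in hAFE and 1621 bp in hPFE. H3K27me3 was absent from the ends in all 7 lists. Inside the gene it appeared in both hPFE libraries and in no other, over 7.51 and 10.7% of the gene with its end windows, with fold enrichments of up to 3.09 and 4.85.

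The difference extended beyond the gene. H3K27ac peaks in MYC and 100 kb either side covered 17.6 and 17.8 kb in hESC, 22.7 and 21.1 kb in hDE, 2.45 and 1.23 kb in hAFE, and 2.68 and 3.26 kb in hPFE. Libraries of hAFE and hPFE did not overlap with those of hESC and hDE. Most of the covered length lay on the side of higher coordinates, with 16.3 and 17.4 kb in hESC, 17.0 and 15.8 kb in hDE, 2.45 and 0.838 kb in hAFE and 2.53 and 3.06 kb in hPFE. In hDE another 5.13 and 4.63 kb lay in the gene and 1 kb either side. The side of higher coordinates holds the beginning of PVT1 (chr8:127794524-128101256), a long noncoding RNA gene whose body is known to hold MYC enhancers in other cell types. No measurement here ties a region to a target gene.

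Joining the lists gave 9 regions there with a peak in every hESC and hDE library and in no hAFE or hPFE library, 50.8 to 77.9 kb beyond the end of MYC. Another 5 were present in both hESC libraries alone. A single region, chr8:127808946-127812080, 66.0 kb beyond the end, held H3K27ac in all 8 libraries, with fold enrichments of 9.95 and 8.06 in hESC, 8.86 and 13.6 in hDE, 9.38 and 4.32 in hAFE, and 3.80 and 11.9 in hPFE. It lies inside PVT1. H3K4me2 on the same side covered 10.2 and 10.5 kb in hESC, 7.37 and 6.10 kb in hDE, 2.85 kb in hAFE and 3.01 kb in hPFE, so it too was lower at the later stages.

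Relative to all genes the MYC ratio was extreme in the comparisons with hPFE. The mean covered length in hPFE was 0.168 times that in hESC, and 0.85% of the 17875 genes with a ratio had a lower one, with a median of 1.37 over all genes. Against hDE the hPFE ratio was 0.136, with 2.46% of genes lower and a median of 0.784. The hAFE lists are short, and the hAFE ratio to hDE of 0.0841, with 3.18% of genes lower, stood against a median of 0.418. Cut to lists of equal length, the ratios were 0.125 for hPFE over hESC (0.539% of genes lower, median 1.25), 0.106 for hPFE over hDE (1.62%, median 0.82) and 0.111 for hAFE over hDE (2.46%, median 0.645). The MYC end calls for H3K27ac were the same in each setting tried.

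**Figure D2:**
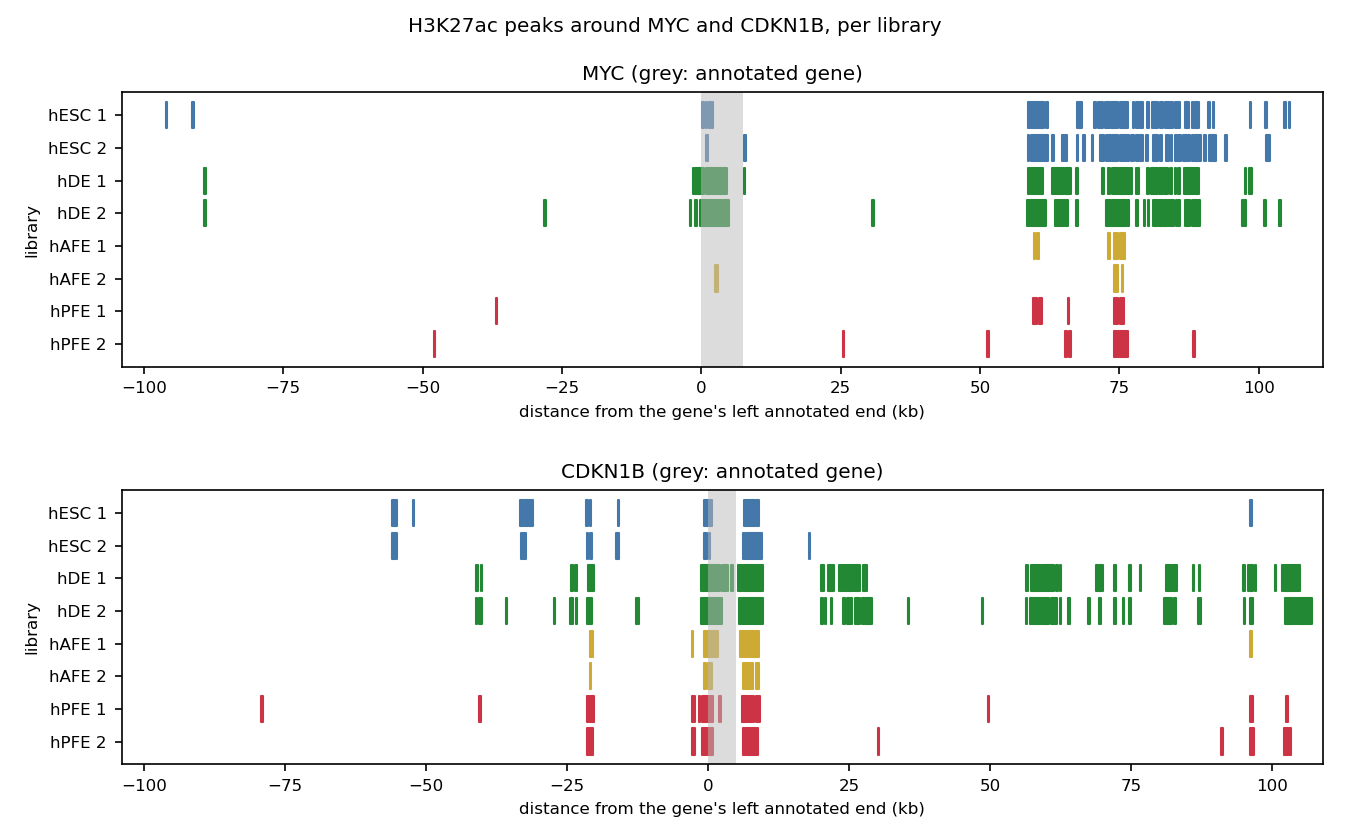
H3K27ac peaks of each of the 8 libraries (rows, by stage and replicate) around MYC (upper panel) and CDKN1B (lower panel), by distance in kb from the left annotated end of the gene, with the gene in grey. The cluster to the right of MYC thins out in the 4 hAFE and hPFE rows to 1 region held by all, and the cluster to the right of CDKN1B is dense in the 2 hDE rows.

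MYCN, the paralogue of MYC that is prominent in embryonic and neural progenitors, had H3K27ac at its ends in every list as deposited. The hDE call was made in 1 of 2 libraries with a −log10 p of 5 or more or a −log10 q of 2 or more, and in neither with lists of equal length. It spans chr2:15940550-15947004, its start at the first of these bases. H3K27ac at the ends covered 1441 and 1412 bp in hESC, 974 and 749 bp in hDE, 1508 and 1321 bp in hAFE, and 1734 and 701 bp in hPFE, so that every library had the mark and hDE overlapped only with hPFE. H3K4me2 covered 1184 and 1427 bp in hESC, 2001 and 1443 bp in hDE, 1250 bp in hAFE and 1190 bp in hPFE. No library had H3K27me3 at MYCN. The 250 bases before its start, of the reference sequence, are shown because they carry matches to an E2F motif, the motif of the factors that D cyclins release, and lie at the edge of the H3K27ac peaks. These reached into them over 38 and 55 bases in hESC, 0 and 0 in hDE, 45 and 37 in hAFE, and 28 and 0 in hPFE. Capitals mark matches, on either strand, to the GC box (GGGCGG) and to the E2F motif (TTTCCCGC, TTTCGCGC, TTTGCCGC or TTTGGCGC). The pair of E2F matches in MYCN overlap and read as 1 run of capitals. Promoter sequences here and below are from RefSeq (GRCh38.p14), with the base next to the start last, and give the strand on which the gene is read. This one is chr2:15940300-15940549, plus strand.
MYCN: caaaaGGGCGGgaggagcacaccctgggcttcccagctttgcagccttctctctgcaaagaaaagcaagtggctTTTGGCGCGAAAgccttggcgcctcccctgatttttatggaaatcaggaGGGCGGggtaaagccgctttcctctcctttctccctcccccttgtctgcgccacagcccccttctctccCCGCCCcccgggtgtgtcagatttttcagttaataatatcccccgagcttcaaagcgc
The window holds 3 GC boxes and 2 E2F matches. A GC box is found in 42.6% of 34788 promoter windows of this length and an E2F match in 2.78%. The E-box bound by MYC and MAX (CACGTG), found in 6.31% of windows, was in none of the windows of these genes. A match is only a string of letters and shows no binding.

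Around MYCN, H3K27ac within 100 kb covered 8.87 and 4.83 kb in hESC, 2.86 and 2.12 kb in hDE, 3.38 and 2.32 kb in hAFE, and 9.46 and 6.62 kb in hPFE. Libraries of hDE were below those of hESC, and libraries of hPFE above those of hDE. The hDE mean was 0.364 times the hESC mean, with 2.11% of genes lower against a median of 1.74, and the hPFE mean was 3.22 times the hDE mean, with 97.5% of genes lower against a median of 0.784. Outside the gene ends, 4 regions were present in both hPFE libraries and in no other, 45.8 to 46.9 kb to the left and 38.0 to 39.6 kb to the right. The long noncoding RNA genes MYCNUT and MYCNOS adjoin or overlap MYCN, and peaks at its left end cannot be assigned to one of these genes.

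CCND1, the D cyclin most often linked to growth factor signalling, differed between stages in its H3K27ac call within 1 kb of the gene ends, which CCND2 and CCND3 did not. The CCND3 call, however, lay on the side of the neighbouring gene TAF8, and was not made in hDE or hAFE with windows at the listed starts. With windows of 2.5 kb, however, CCND1 too was marked at all 4 stages, hESC and hDE included. It spans chr11:69641156-69654474. H3K27ac at its ends covered 0 and 758 bp in hESC, 0 and 0 bp in hDE, 1285 and 210 bp in hAFE, and 1812 and 1097 bp in hPFE. Libraries of hPFE were above those of every earlier stage except that they overlapped with hAFE, and the hESC pair disagreed. The strongest peak had a fold enrichment of 6.01 and 3.53 in hAFE and of 12.2 and 9.43 in hPFE. The call in hAFE rests on a weak peak in replicate 2 and was no longer made with the stricter thresholds on p or q. H3K27me3 at the ends covered 11 and 204 bp in hESC, 355 and 501 bp in hDE, and 0 bp in hAFE and in both hPFE libraries. The hESC call rests on 11 bp in replicate 1, and the hDE call was made in 1 of 2 libraries with the stricter thresholds, under which the loss against hDE is not called. H3K4me2 was present throughout, with 1625 and 1610 bp in hESC, 1059 and 1115 bp in hDE, 732 bp in hAFE and 819 bp in hPFE.

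At the wider CCND1 locus, H3K27ac covered 4.92 and 5.16 kb in hESC, 2.78 and 3.01 kb in hDE, 6.10 and 2.39 kb in hAFE, and 11.1 and 6.82 kb in hPFE. All hPFE libraries lay above all others, and hDE lay below hESC. The hPFE mean was 3.10 times the hDE mean, against a median of 0.784 over all genes, with 97.2% of genes lower. With lists of equal length that ratio was 12.9, with 99.9% of genes lower. The hDE mean was 0.574 times the hESC mean with the lists as deposited and 0.143 times with equal lengths. Within 100 kb of CCND1 also lie LTO1 and FGF19, a growth factor gene, so part of this area may belong to them.

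CCND2, a D cyclin of many stem and progenitor cells, held H3K27ac and H3K4me2 at its ends in every library. It spans chr12:4273762-4305353. Its H3K27ac covered 983 and 928 bp in hESC, 1334 and 1345 bp in hDE, 1650 and 1115 bp in hAFE, and 1343 and 757 bp in hPFE, with fold enrichments of 8.08 and 8.40, 12.2 and 11.8, 10.6 and 5.86, and 9.50 and 5.43 in the same order. The hDE and hAFE libraries were above the hESC ones, and hPFE overlapped with every other stage. H3K27me3 covered 265 bp in replicate 2 of hESC and 0 bp in the other 6 libraries. The hPFE and hESC means of H3K27ac within 100 kb had a ratio of 1.04, against a median of 1.37 over all genes.

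CCND3, a D cyclin of differentiating and blood cells, gave different answers at its annotated end and at its listed starts. It is read from the minus strand and spans chr6:41934933-42050035, and its upstream annotated end lies within 1 kb of the start of TAF8, a subunit of the general transcription factor TFIID. H3K27ac in the end windows covered 251 to 399 bp in all 8 libraries, on the TAF8 side, and cannot be assigned to CCND3. Around the listed start at 42048688, H3K27ac was found only in hPFE, over 258 and 206 bp, and in none of the 6 earlier libraries. The fold enrichments there were 2.86 and 3.80, beside medians of 3.53 and 3.04 over the same lists. Around another listed start, at 41939205, H3K27ac was found only in hESC, over 367 and 709 bp. Around the remaining listed start, at 41941808, it was found only in replicate 1 of hESC, over 230 bp. H3K27me3 around the start at 42048688 covered 1592 and 1921 bp in hESC, 1046 and 1249 bp in hDE, 398 bp in hAFE, and 0 and 0 bp in hPFE. Every hPFE library was thus below every earlier one for H3K27me3 and above every earlier one for H3K27ac. In the end windows H3K27me3 covered 604 and 1083 bp in hESC, 169 and 439 bp in hDE and 0 bp in hAFE and hPFE. H3K4me2 around the start covered 979 and 1142 bp in hESC, 876 and 787 bp in hDE, 1297 bp in hAFE and 798 bp in hPFE.

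The 250 bases before that start, chr6:42048689-42048938 on the minus strand, are shown because H3K27me3 peaks reached into them in hESC, over 102 and 170 bases, and in no later library, while H3K27ac peaks reached into them in hPFE, over 147 and 10 bases, and in no earlier one. Capitals mark GC boxes.
CCND3: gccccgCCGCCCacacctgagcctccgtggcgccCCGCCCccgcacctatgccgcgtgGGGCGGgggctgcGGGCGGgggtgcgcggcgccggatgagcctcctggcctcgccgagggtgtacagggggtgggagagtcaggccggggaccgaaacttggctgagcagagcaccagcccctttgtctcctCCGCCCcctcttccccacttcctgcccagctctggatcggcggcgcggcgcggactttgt
The window holds 5 GC boxes and 26 CpG sites, against a median of 11 CpG sites over all promoter windows.

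The CIP/KIP inhibitors differed among themselves. CDKN1A, the p21 gene that p53 switches on after DNA damage, spans chr6:36676463-36687332, and its listed start at 36678714 lies 2251 bp inside the annotated gene. H3K27ac at its ends covered 221 and 166 bp in hESC, 0 and 162 bp in hDE, 1959 and 141 bp in hAFE, and 1519 and 768 bp in hPFE. Replicate 1 of hAFE stood above replicate 2 by far, and hPFE lay above hESC and hDE. Around the listed start H3K27ac was seen only in replicate 1 of hESC (242 bp), hAFE (1541 bp) and hPFE (1504 bp). H3K27me3, absent from the annotated ends, covered 779 and 1218 bp around this start in hESC, 337 and 863 bp in hDE, 435 bp in hAFE, and 0 and 0 bp in hPFE. Both hPFE libraries were below every other. H3K4me2 around the start covered 1308 and 1438 bp in hESC, 1266 and 1189 bp in hDE, 1491 bp in hAFE and 1801 bp in hPFE. The window upstream of it is chr6:36678464-36678713 on the plus strand. It is shown because H3K27me3 peaks entered it in none of the 7 libraries, though in hESC, hDE and hAFE they lay within 1 kb of the start. Capitals mark GC boxes, of which the last pair share 1 base.
CDKN1A: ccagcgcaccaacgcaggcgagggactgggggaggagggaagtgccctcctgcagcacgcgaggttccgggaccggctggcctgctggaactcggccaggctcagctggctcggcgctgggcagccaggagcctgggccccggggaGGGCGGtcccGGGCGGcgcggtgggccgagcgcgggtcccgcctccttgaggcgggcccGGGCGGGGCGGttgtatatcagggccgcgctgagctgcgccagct
It holds 4 GC boxes and 27 CpG sites.

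Within 100 kb of CDKN1A, H3K27ac covered 3.58 and 3.25 kb in hESC, 4.63 and 4.79 kb in hDE, 9.94 and 2.79 kb in hAFE, and 9.38 and 6.43 kb in hPFE. Both hPFE libraries lay above the hESC and hDE libraries, and the hPFE mean was 2.32 times the hESC mean, with 80.0% of genes lower. H3K27me3 to the left of the gene covered 0 and 0 kb in hESC, 0 and 0.349 kb in hDE, 13.2 kb in the single hAFE library, and 0 and 0.13 kb in hPFE. That hAFE area consisted mainly of 22 regions seen in no other library, 5.56 to 37.2 kb from the gene, and has no replicate.

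CDKN1B, the p27 gene that holds resting cells out of the cycle, carried H3K27ac and H3K4me2 at its ends in every library and had by far its widest H3K27ac in hDE. It spans chr12:12717368-12722369, and the end of GPR19 lies within 1 kb of its start, so that the window is shared. H3K27ac at the ends covered 1394 and 977 bp in hESC, 2799 and 2212 bp in hDE, 1770 and 804 bp in hAFE, and 1730 and 1501 bp in hPFE. Both hDE libraries were above all others. H3K27me3 was found at the ends over 246 bp in replicate 1 of hESC and in no other library. Its peaks within 100 kb covered 5.06 and 6.015 kb in hESC, 0 and 0.121 kb in hDE, 0.329 kb in hAFE, and 0.462 and 0.349 kb in hPFE. Within 100 kb H3K27ac covered 7.27 and 6.09 kb in hESC, 27.8 and 26.0 kb in hDE, 6.07 and 3.17 kb in hAFE, and 7.44 and 7.18 kb in hPFE. The side downstream of the gene held 21.2 and 19.9 kb of it in hDE, against 2.37 and 2.91 kb in hESC, and 3.70 and 4.37 kb in hPFE. There, 18 regions present in both hDE libraries and in no other lay 15.0 to 89.9 kb beyond the gene and summed to 13129 bp. Much of that stretch is APOLD1 (chr12:12725917-12791466), a gene known from endothelial cells, and the regions cannot be assigned to CDKN1B by position. The hDE mean was 4.03 times the hESC mean, with 86.3% of genes lower, and the hPFE mean 0.272 times the hDE mean, with 8.42% of genes lower, so the ratio at CDKN1B stood less far out among all genes than that at MYC.

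**Figure D3:**
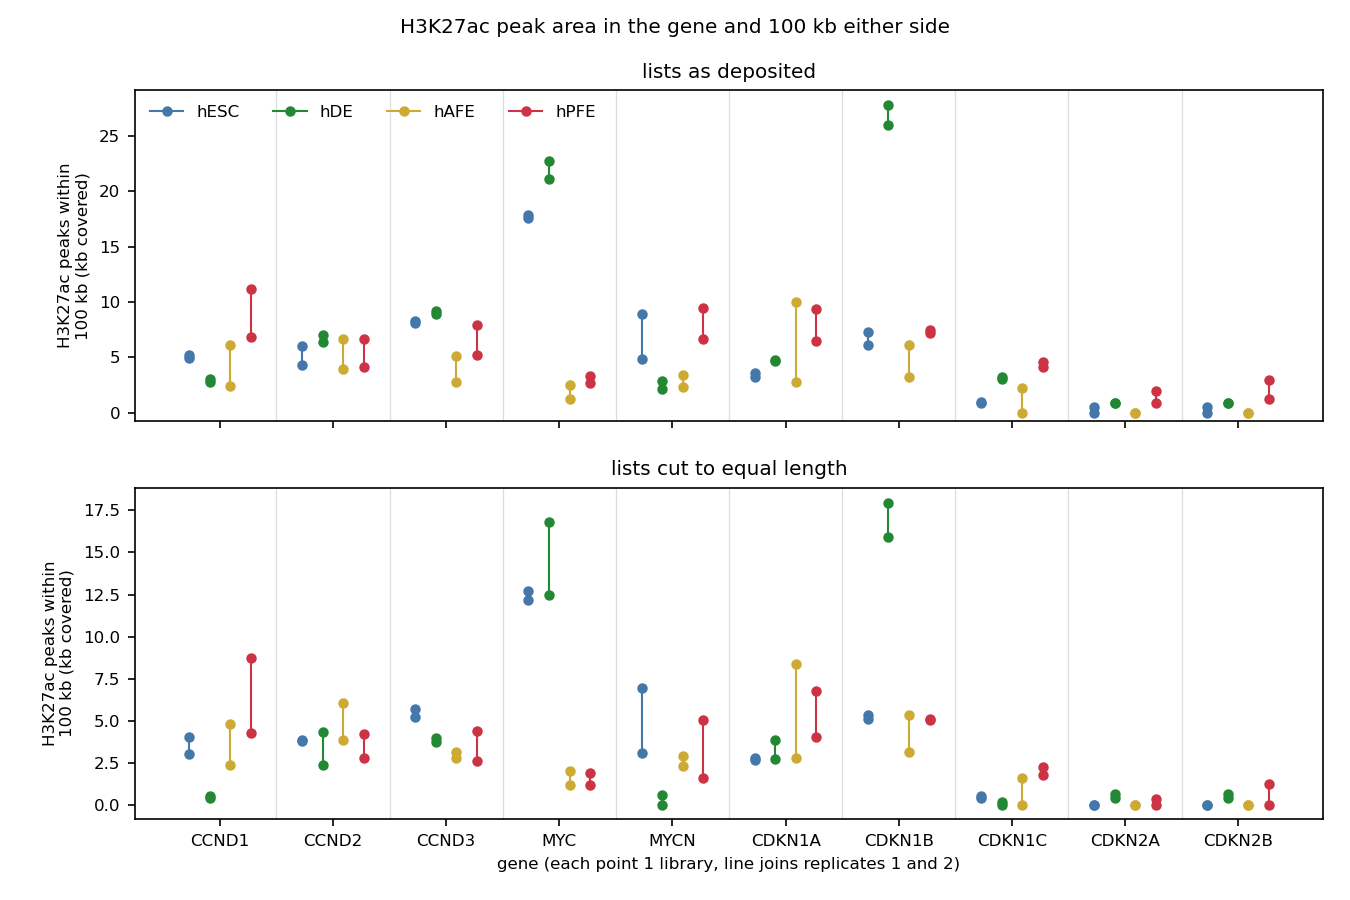
Kilobases covered by H3K27ac peaks in each gene and 100 kb either side (vertical axis), by gene (horizontal axis), with 1 point per library, colours for the 4 stages and a line joining replicates 1 and 2, for lists as deposited (upper panel) and cut to equal length (lower panel). MYC is at 17.6 to 22.7 kb in hESC and hDE and at 1.23 to 3.26 kb in hAFE and hPFE, and CDKN1B at 26.0 and 27.8 kb in hDE.

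CDKN1C is the imprinted p57 gene that restrains growth in the embryo. From hESC to hPFE its ends lost H3K27me3 and gained H3K27ac, with both marks called in hDE. It spans chr11:2883218-2885775. H3K27me3 at its ends covered 1805 and 2558 bp in hESC, 411 and 763 bp in hDE, 210 bp in hAFE, and 0 and 0 bp in hPFE. Each stage was below the one before it, with no overlap. H3K27ac covered 0 and 0 bp in hESC, 864 and 536 bp in hDE, 898 and 0 bp in hAFE, and 1280 and 798 bp in hPFE, and the hAFE pair disagreed. H3K4me2 was present throughout, over 692 to 1614 bp. H3K27ac within 100 kb covered 0.867 and 0.93 kb in hESC, 3.23 and 3.05 kb in hDE, 2.24 and 0 kb in hAFE, and 4.54 and 4.08 kb in hPFE. The hPFE mean was 4.80 times the hESC mean, with 95.8% of genes lower, and 4.02 times with equal list lengths, with 94.5% of genes lower. With equal lengths CDKN1C had no H3K27ac call in hDE.

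CDKN2A and CDKN2B, neighbouring tumour suppressors and long-known Polycomb targets, had H3K27me3 at their ends in all 7 libraries, which held at CDKN2A in every setting tried and at CDKN2B did not. They lie on the minus strand of chromosome 9 at chr9:21967752-21995324 and chr9:22002903-22009313, so that their 100 kb surroundings largely coincide and do not count as separate observations. The long noncoding RNA gene CDKN2B-AS1 (chr9:21994791-22128142) overlaps the upstream end of CDKN2A and all of CDKN2B, and CDKN2A-AS1 meets the other end of CDKN2A. Peaks there cannot be assigned to one of these genes. Peaks of H3K27me3 covered 79.8 and 83.4% of CDKN2A with its end windows in hESC, 83.7 and 69.1% in hDE, 55.8% in hAFE, and 65.2 and 59.4% in hPFE. The hPFE libraries were below the hESC and hDE libraries, and hAFE was below all of them. Over CDKN2B the shares were 84.4 and 82.8% in hESC, 46.5 and 46.0% in hDE, 31.2% in hAFE, and 50.9 and 33.4% in hPFE. Every later library was thus below both hESC libraries. At the ends of CDKN2B H3K27me3 covered 2773 and 2682 bp in hESC, 2115 and 1440 bp in hDE, 115 bp in hAFE, and 637 and 313 bp in hPFE. The hAFE call rests on 115 bp and was not made with stricter thresholds on p or q, with 200 bp required, with 500 bp windows or at the listed start. The hPFE call was made in 1 of 2 libraries with stricter thresholds, equal lengths or 500 bp windows and in neither at the listed start, where the hDE call too was made in 1 of 2. At the ends of CDKN2A the range was 2464 to 3762 bp over all 7 libraries.

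H3K4me2 was also present at both genes in all 6 libraries, over 1087 to 2157 bp at the ends of CDKN2A and 559 to 1428 bp at those of CDKN2B. H3K27ac at the ends of CDKN2B covered 0 and 0 bp in hESC, 894 and 714 bp in hDE, 0 and 0 bp in hAFE, and 309 and 546 bp in hPFE, with fold enrichments of 11.0 and 8.83 in hDE and 3.45 and 5.65 in hPFE. In hDE and hPFE H3K27me3 was called in the same windows, for the most part on other bases. At CDKN2A H3K27ac was found only in hPFE, over 65 and 151 bp at the end that CDKN2B-AS1 overlaps, with fold enrichments of 2.76 and 3.04. That call was not made with stricter thresholds, with 200 bp required, or with lists of equal length.

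Promoter windows of the INK4 locus are shown because their coverage by H3K27me3 and H3K4me2 differed from window to window. They are chr9:21995325-21995574, before the start of the ARF transcript of CDKN2A, which encodes the p53 pathway protein ARF, chr9:21974858-21975107, before the start of the p16INK4a transcript, and chr9:22009306-22009555, before the start of CDKN2B, all on the minus strand. The windows before ARF and CDKN2B also lie within CDKN2B-AS1. Capitals mark GC boxes.
CDKN2A (ARF start): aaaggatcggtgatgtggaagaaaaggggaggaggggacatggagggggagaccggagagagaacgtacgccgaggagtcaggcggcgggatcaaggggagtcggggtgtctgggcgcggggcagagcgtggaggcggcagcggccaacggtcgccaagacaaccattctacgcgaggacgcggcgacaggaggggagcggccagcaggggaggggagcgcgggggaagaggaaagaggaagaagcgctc
CDKN2A (p16INK4a start): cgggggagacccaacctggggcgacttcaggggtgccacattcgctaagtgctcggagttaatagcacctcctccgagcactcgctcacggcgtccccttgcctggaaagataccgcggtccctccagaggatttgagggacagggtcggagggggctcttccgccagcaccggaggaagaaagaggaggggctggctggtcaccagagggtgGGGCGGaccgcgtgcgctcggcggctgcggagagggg
CDKN2B: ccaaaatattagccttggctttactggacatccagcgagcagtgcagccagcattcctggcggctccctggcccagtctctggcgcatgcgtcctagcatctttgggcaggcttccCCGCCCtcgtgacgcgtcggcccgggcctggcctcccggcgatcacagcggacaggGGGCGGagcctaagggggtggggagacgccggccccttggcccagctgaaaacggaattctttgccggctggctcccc
H3K27me3 covered 0 of the 250 bases before CDKN2B in all 7 libraries, although it covered most of the gene in hESC, and H3K4me2 covered 250 and 250 of them in hESC, 48 and 53 in hDE, 10 in hAFE and 26 in hPFE. Before the ARF start H3K4me2 covered all 250 bases in each of 6 libraries. H3K27me3 there covered 250 and 250 bases in hESC, 0 and 125 in hDE, 144 in hAFE, and 0 and 25 in hPFE. Before the p16INK4a start H3K27me3 covered 0 and 0 bases in hESC, 0 and 171 in hDE, 190 in hAFE, and 130 and 250 in hPFE. The hESC libraries were thus fully covered before the ARF start and at 0 before the p16INK4a start. The windows hold 24, 20 and 18 CpG sites and 0, 1 and 2 GC boxes in the order printed.

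**Figure D4:**
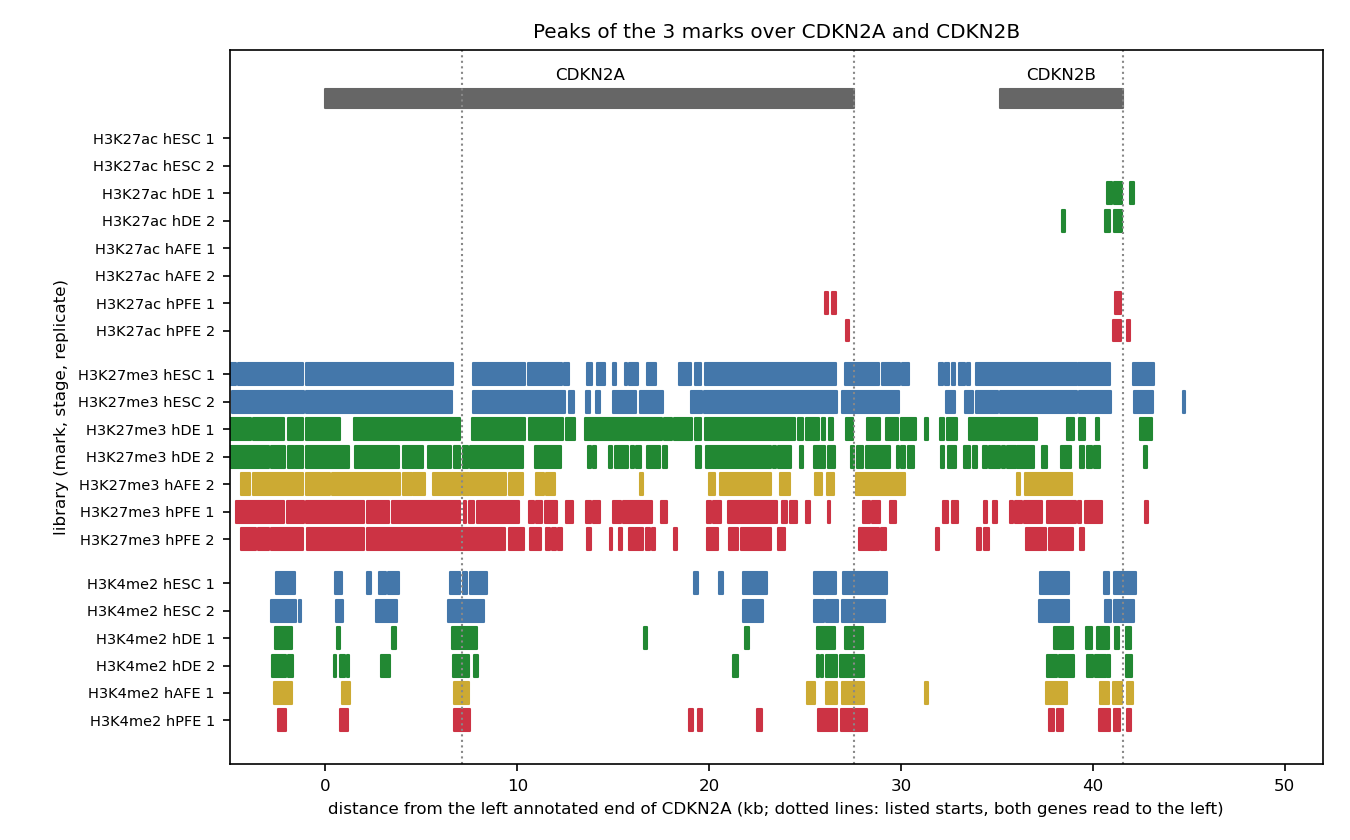
Peaks of the 3 marks over CDKN2A and CDKN2B, 1 row per library (mark, stage and replicate), by distance in kb from the left annotated end of CDKN2A, with dotted lines at the listed starts. H3K27me3 covers 55.8 to 83.7% of CDKN2A with its end windows in all 7 rows and less of CDKN2B after hESC, with a gap at the CDKN2B start, and H3K27ac appears at CDKN2B in the 2 hDE and 2 hPFE rows.

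Genes with H3K27me3 and H3K4me2 at their ends at the same stage were CCND1, CCND3, CDKN1C, CDKN2A and CDKN2B in hESC and in hDE (5 of 10, against 18.5 and 11.6% of all genes), CDKN1C, CDKN2A and CDKN2B in hAFE (13.2%), and CDKN2A and CDKN2B in hPFE (10.3%). CDKN1A, whose listed start lies inside the annotated gene, is not counted here but had both marks within the gene. In the gene with its end windows they shared 1694 to 2201 bp in hESC and 983 to 1808 bp in hDE. They shared 1307 bp in hAFE, and 0 and 112 bp in hPFE. At CCND1 they shared 7 to 258 bp in hESC and 115 to 532 bp in hDE. Lists of separate libraries do not show whether both marks sit on the same chromosome copy. H3K27me3 and H3K27ac were both called in the end windows of CCND3 in hESC (2.78% of all genes), of CCND3, CDKN1C and CDKN2B in hDE (2.17% of all genes) and of CDKN2A and CDKN2B in hPFE (1.21%), mostly on different bases. Only at CDKN1C in hDE did peaks of both marks share bases in all 4 library pairs, over 122 to 519 bp. At CCND3 they shared 49 bp in 1 of 4 pairs in hESC and 0 bp in hDE, with H3K27ac on the TAF8 side. At CDKN2B they shared 185 bp in 1 of 4 pairs in hDE and 0 bp in hPFE, and at CDKN2A 38 bp in 1 of 4 pairs in hPFE. CCND2, MYC, MYCN, CDKN1A and CDKN1B had no H3K27me3 call at their ends at any stage.

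Whether peak area at a locus grouped by stage was tested for each gene with the Jaccard index, the shared over the combined bp of peaks of 2 libraries within the gene and 100 kb either side. For H3K27ac, 6 of the 8 genes tested passed an adjusted p of 0.05 in a one-sided exact permutation test over libraries, against 70.2% of 17201 genes tested. CDKN1B had the widest gap, with a mean index of 0.531 within and 0.265 between stages (exact p = 0.00952, the smallest of 105 partitions, adjusted p = 0.0212). CCND1, CCND3 and MYCN had the same p. MYC had 0.420 within and 0.180 between stages and CCND2 0.480 and 0.359 (exact p = 0.0286, adjusted p = 0.0407 for each). CDKN1A and CDKN1C did not pass (exact adjusted p = 0.0796 each), and CDKN2A and CDKN2B had libraries without peaks and were not tested. Without 1 library of hDE, or without replicate 2 of hAFE or of hPFE, none of the 8 passed for H3K27ac, and neither did any of all genes tested. Without replicate 1 or replicate 2 of hESC 4 passed, against 41.1 and 25.9% of all genes tested.

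For H3K27me3 none of the 8 genes tested passed, as for 0% of 11827 genes. MYC and MYCN had libraries without peaks of this mark and were not tested. The unadjusted exact p was under 0.05 for CCND1, CCND3, CDKN2A and CDKN2B (adjusted p = 0.103 for each), given here without the share of all genes. CDKN2A had a mean index of 0.721 within and 0.604 between stages. Among the 8 loci tested both values were the highest apart from those of CDKN2B, whose window CDKN2A largely shares. For H3K4me2, 9 of the 10 passed, against 60% of 19317 genes, at the smallest p that 45 partitions allow (exact p = 0.0222, adjusted p = 0.0370). MYC was the exception with an exact p of 0.156, its indices being 0.527 within and 0.427 between stages. With 1 H3K4me2 library left out, 10 or 15 partitions remain, whose smallest p of 0.1 or 0.0667 cannot pass, so leaving one out says nothing of how stable these calls are.

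**Figure D5:**
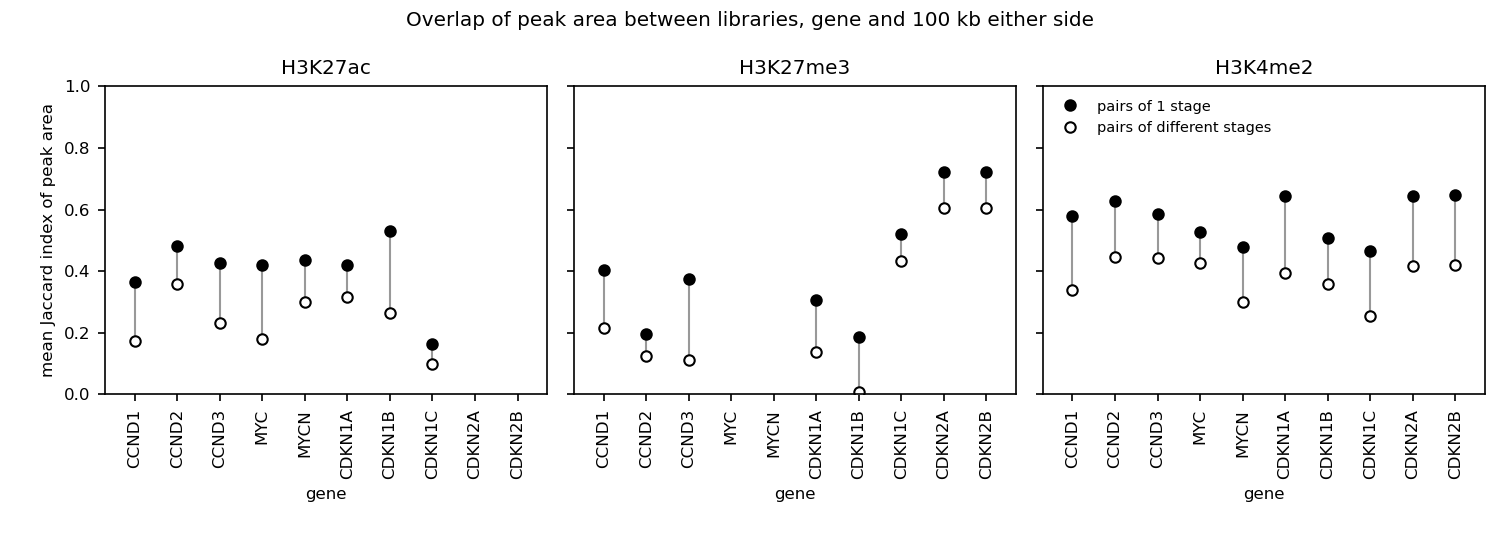
Mean Jaccard index of peak area in each gene and 100 kb either side (vertical axis, 0 to 1) for library pairs of 1 stage (filled points) and of different stages (open points), by gene (horizontal axis) and mark (panels). For H3K27ac the points lie farthest apart at CDKN1B, at 0.531 and 0.265, and for H3K27me3 both points are high at CDKN2A and CDKN2B.

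Covered length within 100 kb was also compared between stages by whether the libraries overlapped. The counts stand beside the share of all genes and have no test, and CDKN2A and CDKN2B share most of their window. All hDE libraries were above all hESC libraries in H3K27ac at 8 of the 10 genes, against 69.8% of all genes, and below at CCND1 and MYCN, against 9.66%. All hPFE libraries were above all hESC libraries at 5 (CCND1, CDKN1A, CDKN1C, CDKN2A and CDKN2B, against 48.6%) and below at CCND3 and MYC (14.6%). Against hDE, all hPFE libraries were above at 5 (CCND1, MYCN, CDKN1A, CDKN1C and CDKN2B, against 17.3%) and below at 3 (CCND3, MYC and CDKN1B, against 50.4%). All hAFE libraries were below all hDE libraries at 6 genes (82.7%) and above at 0 (2%), and below all hESC libraries at 4 (CCND3, MYC, MYCN and CDKN1B, against 43.5%) and above at 0 (7.26%). All hPFE libraries were above all hAFE libraries at 8 (67.5%) and below at 0 (1.54%). With lists of equal length the genes above in hPFE against hESC were CCND1, CDKN1A and CDKN1C (40.7% of all genes), and CCND3 and MYC were again below (16.9%). In hDE against hESC only CDKN1B, CDKN2A and CDKN2B were then above (57.4%), and CCND1, CCND3, MYCN and CDKN1C were below (13.5%). In hPFE against hAFE only CDKN1C was above (30.3%). Against hDE, hPFE was above at 4 (19.5%) and below at 3 (42.3%). Libraries of hAFE were below hDE at 5 (53%) and above at 2 (10.1%), and below hESC at 3 (22.9%) and above at 0 (21.6%). H3K4me2 was lower in all hDE than in all hESC libraries at all 10 genes, against 75.1% of all genes. Summed over the 10 genes, H3K27ac peaks within 100 kb numbered 128 per hESC library, 164.5 per hDE library, 63 per hAFE library and 153.5 per hPFE library on average, which has the same order as the lengths of the lists.

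Other genes of the pathway, a list of 44 that comprises G1 kinases and later cyclins, pocket proteins and E2F factors, further INK4 inhibitors, MYC partners and antagonists, regulators of turnover, and upstream WNT, Notch and Nodal effectors, kept H3K4me2. It was at the ends of all 44 at each stage and changed call at none. In the order hESC, hDE, hAFE and hPFE, H3K27ac marked 31, 42, 27 and 40 of them, against 42.9, 54, 34.2 and 50.2% of all genes, and H3K27me3 marked 9, 6, 6 and 4, against 19.2, 13.4, 15.5 and 12.7%. In hDE against hESC, 5 gained H3K27ac (6.72% of all genes) and 0 lost it (1.18%). These were CDK6, the kinase partner of the D cyclins, the MYC paralogue MYCL, the MYC antagonists MXI1 and MXD4, and the Polycomb protein gene CBX7. In hPFE against hESC, 6 gained it (5.25% of all genes) and 0 lost it (1.63%), the 6 being CDK6, MYCL, MXI1, MXD4, the E2F partner TFDP1 and the WNT effector LEF1. In hPFE against hDE, LEF1 gained it and MGA, a MAX partner that opposes MYC, lost it, and in hAFE against hDE the general partner MAX and MGA lost it. In hPFE against hAFE, MAX and LEF1 gained it, and MYCL had gained it in hAFE against hESC.

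H3K27me3 was lost in hDE against hESC at 4 of the 44 (CDK6, CCNE2, MYCL and MXI1, against 4.27% of all genes) and gained at 1, the MYC antagonist MXD1 (0.634%). In hPFE against hESC it was lost at 5 (the same 4 and E2F2, against 6.22%) and gained at 0 (1.13%), and in hPFE against hDE at CDKN2D, the p19 INK4 gene, and MXD1 (2.19%). CDK6, MYCL and MXI1 were thus the pathway genes with both a gain of H3K27ac and a loss of H3K27me3 in hDE and in hPFE against hESC. In the end windows of the 10 genes, CDKN1C alone combined both over the course to hPFE against hESC. The share of all genes with such a combination was not computed, so these genes are named as description only. Around the CCND3 start at 42048688, H3K27me3 covered 1592 and 1921 bp in hESC and 0 and 0 bp in hPFE. H3K27ac there covered 0 and 0 bp in hESC and 258 and 206 bp in hPFE.

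Genes whose covered share of the end windows was most like each of the 10 over the 21 libraries were found by the mean absolute difference. The closest to MYC were ANXA6 (2.69 percentage points) and PLCXD1 (2.86), against a median of 12.9 over all genes, and the closest to MYCN were UBB (4.27) and RNF5 (4.31), against 15.6. For the D cyclins they were EPHA7 and RNF144B (4.59 and 5.00) for CCND1, TIMM9 and KIAA0586 (2.39 and 2.52) for CCND2, and RAB3IP and GOLM1 (3.30 and 4.00) for CCND3. For the CIP/KIP genes they were CYP2J2 and TEX52 (3.39 and 3.57) for CDKN1A, ATG13 and DDX5 (4.05 and 4.43) for CDKN1B, and CD151 and GUCY1A1 (6.07 and 6.77) for CDKN1C. CDKN2A had ITPKA and OLIG1 (4.38 and 5.32, against a median of 36.4), and CDKN2B had NOL3 and DLX3 (7.56 and 7.66, against 20.2). Likeness over 3 marks at the gene ends says nothing of function.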

How the data were processed

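Peak lists of 21 libraries were used. The 4 input samples entered only as the authors' controls. Per the deposited file names, the authors called peaks per library on alignments without duplicates against the input of the stage, at a p-value of 0.01, with a cap on the number of peaks that no list reached. Alignment was to hg38, per the submitters' processing notes. Aligner and peak caller: not given in the sources used here. A deposited peak carries the authors' score, which was not used, their fold enrichment (a ratio of ChIP signal to input), a −log10 p-value and a −log10 q-value. Fold enrichment serves to describe peaks, and the authors' −log10 p-values and q-values to filter or rank peaks of 1 list.

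Peaks outside chromosomes 1 to 22, X and Y were left out, and overlapping or touching peaks of a library were merged. Gene positions came from RefSeq (GRCh38.p14), whose gene table gives no strand. Listed starts and promoter sequences came from the RefSeq promoter table, which matched 6 of the 10 genes, and CCND1, CCND2, MYC and CDKN1C were described by their annotated ends alone. Stage grouping was tested for all protein-coding genes with peaks in every library of a mark by a one-sided exact permutation over libraries, with Benjamini-Hochberg adjustment over all genes tested and a threshold of 0.05. All 10 genes were described. Pathway genes were named when gained or lost between stages with 2 libraries each, and the 2 genes most like each of the 10 in end-window coverage were named, leaving out genes within 100 kb of it. The genes and lists were chosen with earlier results of these data known. Computation used Python 3.11.15, NumPy 2.4.6, pandas 2.3.3 and Matplotlib 3.10.9, and the calls and the permutation test were tested on simulated data.

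Alternatives were a −log10 p of 5 or more, a −log10 q of 2 or more, 200 bp of peak in the windows, windows of 500 bp and 2.5 kb, lists cut to equal length by −log10 p, windows at listed starts (annotated ends where none is listed), a flank of 50 kb, and each replicate left out. A permutation of stage labels within replicate numbers was added after the data were seen.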

Additional observations from a re-analysis of the deposited data

How the results depend on the processing

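Results rest on peak lists of unknown depth and unequal length, on at most 2 libraries a stage, and on 1 library for hAFE H3K27me3 and for hAFE and hPFE H3K4me2. Replicate numbers are shared by stages, but counts of calls have no model to block. Deviations of replicate 1 from 2 in locus peak area correlated over all genes at −0.266 to 0.156 between stages for H3K27ac, −0.223 to 0.831 for H3K27me3 (highest for hDE with hESC, whose replicates 1 both carry the word millipore, as does that of hPFE) and 0.388 for H3K4me2, so the numbers do not pair all libraries. With the replicate number as a block, stage labels permuted within it (added after the data were seen), the genes grouped by stage numbered 0 for H3K27ac, 0 for H3K27me3 and 0 for H3K4me2. The 24, 24 and 12 partitions allow no p below 0.0417, 0.0417 and 0.0833. At the smallest p were 5 of 8 genes for H3K27ac, 2 of 8 for H3K27me3 and 10 of 10 for H3K4me2, given here without the share of all genes. The loss of H3K27ac at MYC in hAFE and hPFE was called in every setting run. The cause of the differences below was not tested, except that stricter peaks, shorter lists and a smaller flank leave fewer peaks by construction. Counts of calls below are given without the share of all genes, and show only how the calls depend on the setting.

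With a −log10 p of 5 or more, H3K27ac gains numbered 0 in hAFE against hDE, 0 in hPFE against hAFE and 1 in hPFE against hESC. H3K27me3 marked 3 genes in hDE and 1 in hPFE, and was lost at 1 in hAFE and 1 in hPFE, both against hDE. H3K4me2 was gained at 1 in hAFE and 1 in hPFE against hDE. With a −log10 q of 2 or more the same H3K27me3 and H3K4me2 counts were obtained (3, 1, 1, 1, 1 and 1), with H3K27ac gains of 0 in hAFE against hDE and 1 in hPFE against hAFE. With lists of equal length, H3K27ac gains were 1 and losses 1 in hDE against hESC, and gains were 3 in hAFE against hDE, 0 in hPFE against hAFE, 1 in hPFE against hESC and 4 in hPFE against hDE. H3K27me3 then marked 1 gene in hPFE and was lost at 1 in hAFE against hESC, and H3K4me2 was gained at 1 in hAFE and 1 in hPFE against hDE.

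With 200 bp required, H3K27ac was gained at 1 and H3K27me3 at 1 in hPFE against hAFE, and H3K4me2 at 1 in hAFE and 1 in hPFE against hDE and at 1 in each against hESC. With 500 bp windows, H3K27ac was gained at 1 in hPFE against hAFE and 1 against hDE, H3K27me3 marked 1 gene in hPFE, and H3K4me2 was lost at 1 in hPFE against hAFE, gained at 1 and lost at 1 in hPFE against hESC, and gained at 1 in hAFE against hESC. With 2.5 kb windows, H3K27ac was gained at 0 in hAFE and 1 in hPFE against hDE. H3K27me3 was lost at 1 in hAFE against hDE and 2 in hPFE against hAFE, and gained at 1 in hPFE against each of hESC, hDE and hAFE. At listed starts, H3K27ac was lost at 1 in hDE and 2 in hAFE against hESC, H3K27me3 marked 1 gene in hPFE and was lost at 1 in hAFE against hDE and 2 in hPFE against hAFE.

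Summed peaks within 100 kb under a −log10 p of 5 or more were 73, 90, 37 and 72.5 for H3K27ac in hESC, hDE, hAFE and hPFE, 72, 64 and 51.5 for H3K27me3 in hESC, hAFE and hPFE, and 142, 100, 89 and 81 for H3K4me2. With lists of equal length they were 68.5, 42.5 and 51 for H3K27ac in hESC, hDE and hPFE, 77.5 and 61.5 for H3K27me3 in hESC and hPFE, and 187, 166 and 162 for H3K4me2 in hESC, hAFE and hPFE. Within 50 kb they were 67.5, 93.5 and 105.5 for H3K27ac in hESC, hDE and hPFE, 87 for H3K27me3 in hAFE, and 135.5, 127.5, 139 and 123 for H3K4me2.

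The number of the 10 genes grouped by stage was 3 for H3K27ac with a −log10 p of 5 or more (43.9% of all genes tested) and 3 with equal lengths (41.6%). For H3K4me2 with a −log10 p of 5 or more it was 0, as for 0% of all genes tested. Leaving out 1 library gave 0 to 6 for H3K27ac (0 to 77.8% of all genes tested) and 0 to 0 for H3K4me2, where the 10 or 15 partitions that remain cannot pass. It also gave 1 to 2 H3K27ac gains in hAFE against hDE, 0 to 1 H3K27ac gains in hAFE against hESC, 0 to 1 H3K27ac losses and 0 to 1 H3K27me3 losses in hDE against hESC, and 0 to 1 H3K4me2 gains in hAFE and in hPFE against hESC and against hDE. The difference in Jaccard index for H3K27me3, not past the threshold with all libraries, ranged with 1 library left out from −0.00310 to 0.161 at CCND2 and from −0.00637 to 0.271 at CDKN1B, its negative values being those without an hESC library.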
